A study of Rattus norvegicus with 12 samples.

Results

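The constitutive proteasome subunit genes are those for the 20S core, a barrel of stacked rings (Psma and Psmb symbols), and for the 19S cap that sits on its ends (Psmc and Psmd symbols). They were followed in 12 liver RNA samples from rats on 3 diets. Members were the probe sets annotated with exactly 1 gene symbol that begins with Psma, Psmb, Psmc or Psmd and a number, without Psmb8, Psmb9 and Psmb10, the subunits of the immunoproteasome. This gave 40 probe sets of 36 genes out of 15310 probe sets with 1 symbol. Psmc3ip was matched only by its letters, since it encodes a protein of meiotic recombination, and it was set apart. The other 39 were 17 core probe sets of 15 genes and 22 cap probe sets of 20 genes.

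The livers came from male Sprague-Dawley rats labelled Diet-induced obese, which were 12 weeks old when feeding began and 20 weeks old when it ended. For 8 weeks they had free access to a high fat, high sucrose diet of 4.6 kcal per gram in which protein made up 10% of energy. In the control diet the protein was casein, in the dairy diet it came from skim milk powder (complete dairy), and in the leucine diet it was 7.1% casein and 2.9% free leucine. Each diet had 4 liver samples, replicates 1 to 4, each hybridised to 1 Affymetrix Rat Gene 1.0 ST array. Leucine added cannot be told apart from casein withdrawn, nor milk protein from the rest of the milk powder. The labels do not say that every sample was a separate animal, so the p-values measure only the spread between samples, which may in part be technical.

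The proteasome degrades proteins that carry a ubiquitin chain, and returns their amino acids as short peptides. The cap binds and strips the ubiquitin and unfolds the protein with a ring of ATPases, and the inner rings of the core cut it with the active sites of Psmb5, Psmb6 and Psmb7. The genes of the subunits are known to be controlled together, in part by the transcription factor NFE2L1, which binds antioxidant response elements when proteasome activity falls short. Liver turns over much protein, and its proteasome is a main route beside autophagy.

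Values are log2 signals of a probe set, and differences are between group means on that scale, so that 1 unit is a doubling. How strongly a probe set responds differs from gene to gene, so diets are compared only within a probe set. A ranking of members by mean signal is therefore not a ranking by amount of RNA. Values of all probe sets ran from 1.06 to 14.37. Values were least spread out on the array of dairy replicate 3, with an SD over all probe sets of 2.075, followed by that of casein replicate 4 (2.138). On the other 10 arrays the SD was 2.236 or more. Many results that move without these 2 arrays are given both ways, but not every single difference, and not the correlations of single members. Hepatocyte markers, 7 of 7 measured, had mean log2 signals between 12.71 and 13.22 on every array. In whole liver RNA fewer cells of a type and less RNA per cell cannot be told apart.

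Most members gave bright signals and varied together from liver to liver. Of the 39 probe sets 32 belonged to the brightest 25% of all probe sets tested (3828 probe sets). The highest mean signal over 12 arrays was that of Psmb4, an inner ring subunit without an active site (9.87). The lowest was that of the second probe set of Psma6 (2.63, probe set 10759495). Psmb11, a subunit of the thymus, stood at 3.40, and the lesser probe set of Psmd8, 10845624, at 4.36. Psma3 itself has no member, because its probe set is annotated to Psma3 and Psma3l together. The copy Psma3l, a near relative of Psma3, is in the list, and which of them its probe set measures is uncertain.

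Psma4, an outer ring subunit, followed the other members most closely. It stood at 9.32, 8.88, 9.14 and 8.34 in casein replicates 1 to 4, at 8.68, 9.17, 7.75 and 9.49 in dairy replicates 1 to 4, and at 8.99, 8.85, 9.15 and 8.90 in leucine replicates 1 to 4. Casein replicate 4 and dairy replicate 3 were low, and the range of the dairy group enclosed those of both other groups. Psmd14, the cap enzyme that cuts ubiquitin off, also was lowest in dairy replicate 3 and casein replicate 4. It stood at 8.04, 7.75, 7.55 and 6.70 with casein, at 6.96, 7.45, 6.21 and 7.92 with dairy, and at 7.24, 7.31, 7.65 and 7.31 with leucine. The 4 leucine livers lay close together for both genes.

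The Pearson correlation of a member with the median of the other members over the 12 arrays was above 0.5 for 26 of 39 probe sets, 11 in the core and 15 in the cap. It was highest for Psma4 (0.974), the ATPase Psmc2 (0.967), Psma3l (0.963), the main probe set of Psma6 (0.96) and Psmd14 (0.958). These correlations are a description over 12 arrays that share the differences in array spread. The median correlation over pairs of members was 0.362, and over pairs of all tested probe sets it was -0.003. Among tested probe sets at or above the median signal, to which most members belong, it was 0.107. After subtraction of diet means it was 0.503 among core and 0.477 among cap members, and 0.504 between core and cap, beside 0.125 among the probe sets at or above the median signal. Without dairy replicate 3 and casein replicate 4 the median over pairs of members was 0.267 over 10 arrays. It was then 0.411 in the core, 0.229 in the cap and 0 over pairs of all tested probe sets. No such median was computed for the brightest probe sets alone, among which most members lie. Whether the shared variation is particular to the members or common to bright probe sets was therefore not tested.

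Several members did not follow the rest over the 12 arrays. The correlation was below 0 for 7 probe sets, and lowest for Psmd9 (-0.725), a chaperone that helps to build the cap and leaves the finished particle. Psmd9 had 6.43, 6.62, 6.55 and 6.80 with casein, 6.55, 6.31, 6.72 and 6.34 with dairy, and 6.66, 6.55, 6.38 and 6.56 with leucine. It was highest in casein replicate 4 and dairy replicate 3, the arrays where most members were low. The others below 0 were the ATPase Psmc3 (-0.343), the inner ring subunit Psmb3 (-0.225), Psmb11 (-0.223), the main probe set of Psmb6 (-0.19), the chaperone Psmd5 (-0.045) and the cap scaffold Psmd3 (-0.022). After subtraction of diet means Psmd3 (0.431) and the main probe set of Psmb6 (0.258) were above 0 but not above 0.5. Psmd9 (-0.89), Psmc3 (-0.526), Psmd5 (-0.18), Psmb11 (-0.138) and Psmb3 (-0.085) stayed below 0. Psmd5 had the largest SD pooled over diets (0.655) and ran from 6.54 to 7.97 with casein, 6.32 to 7.55 with dairy and 6.30 to 7.90 with leucine. Within dairy alone Psma3l, from 7.14 to 9.04, was more spread out.

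**Figure D1:**
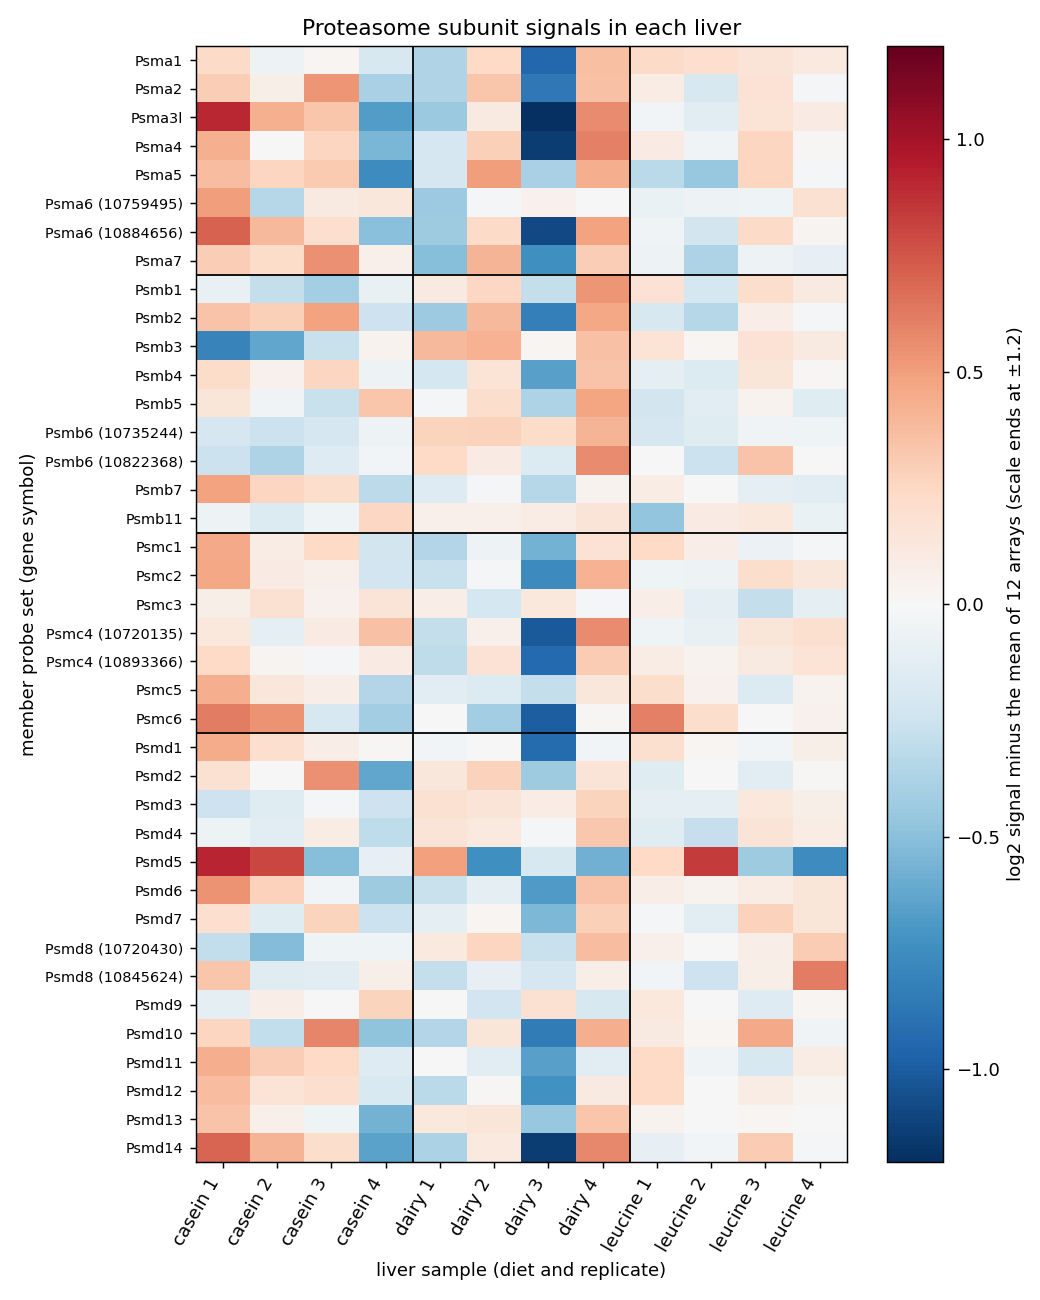
Log2 signal of each of 39 member probe sets (rows, by gene symbol, with the probe set number where a gene has several) in each of 12 livers (columns), as the difference from the mean of the 12 arrays; red is higher and blue lower, and lines part the diets and the Psma, Psmb, Psmc and Psmd genes. Dairy replicate 3 is blue in most rows, and Psmb3, Psmb6 and Psmd3 stand out as rows that are lower with casein than with dairy.

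The livers were ranked by the median deviation of the members from their means over 12 arrays. For the core this was 0.294, -0.0049, 0.205 and -0.0862 in casein replicates 1 to 4, -0.206, 0.236, -0.39 and 0.404 in dairy replicates 1 to 4, and -0.0436, -0.145, 0.158 and -0.0037 in leucine replicates 1 to 4. For the cap it was 0.34, 0.0869, 0.07 and -0.223 with casein, -0.0693, 0.0034, -0.553 and 0.22 with dairy, and 0.0827, 0.0025, 0.0748 and 0.0576 with leucine. Dairy held the lowest liver for both, dairy replicate 3, and the highest for the core, dairy replicate 4, while casein replicate 1 was highest for the cap. The brightest 25% of all probe sets moved with them, with a median of -0.391 in dairy replicate 3, -0.149 in casein replicate 4 and 0.204 in casein replicate 1, and with -0.0142 to 0.0932 on the other 9 arrays. The part of array spread in the member values was not tested.

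**Figure D2:**
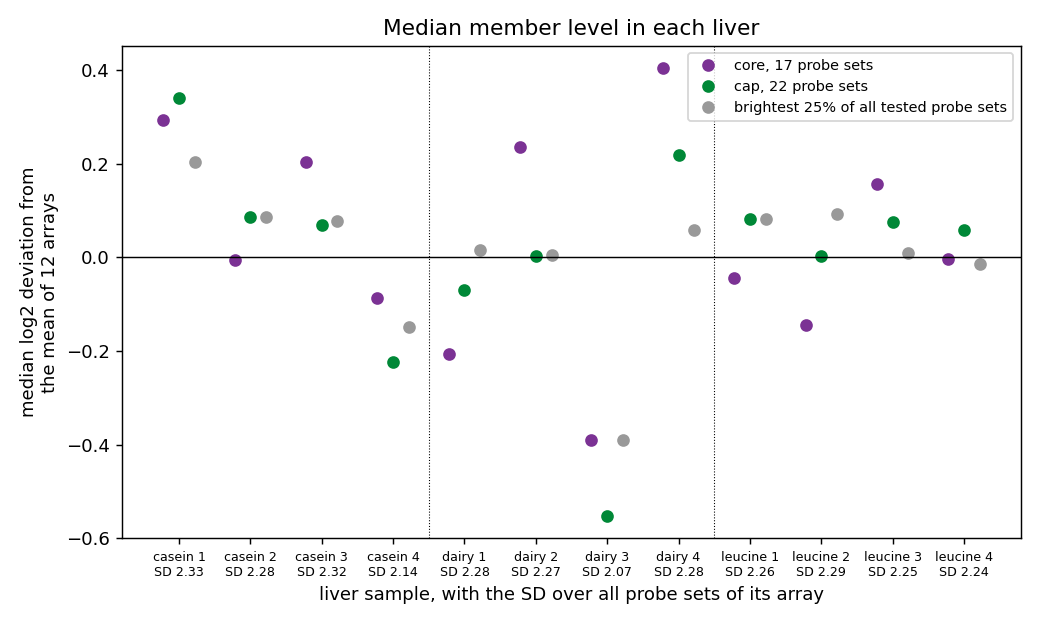
Median log2 deviation from the mean of 12 arrays (y axis) in each liver (x axis, with the SD over all probe sets of its array) for 17 core members, 22 cap members and the brightest 25% of all tested probe sets. Dairy replicate 3, the array of lowest SD, is lowest for all 3, at -0.39 for the core and -0.553 for the cap.

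Between dairy and casein, core and cap members mostly had somewhat lower signals with dairy, and a smaller set that included Psmb6, Psmb3 and Psmd3 had higher ones. None of the 39 probe sets passed the threshold (limma, Benjamini-Hochberg adjusted p under 0.05 over 15310 probe sets), where 0.0849% of all probe sets did. The lowest adjusted p was 0.185. At an unadjusted p under 0.05 there were 4 of 39 members (10.3%), 3 higher and 1 lower with dairy, beside 10.9% of all probe sets (4.59% higher and 6.32% lower). In 3 of 39, with 2 higher and 1 lower, the 4 livers of each diet did not overlap, beside 4.27% of all probe sets (2.09% higher and 2.18% lower). The share at an unadjusted p under 0.05 lies near the background. The count without overlap rests on only 3 members, and whether it differs from the background was not tested.

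The core had 7 higher and 10 lower members with dairy, with a median log2 difference of -0.175, and the cap 5 higher and 17 lower, with a median of -0.222. Over all probe sets the median was -0.0224 and 46.9% were higher, and over the brightest 25% the median was -0.17 and 33.1% were higher. All 39 members had a median of -0.187 with 30.8% higher, which is near the values of the bright probe sets. The core median was 0.0799 without dairy replicate 3, with 9 of 17 members higher, and the cap median was -0.0836. With casein replicate 4 left out as well they were -0.0715 and -0.144.

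The rings and the parts of the cap differed in how many members were higher. In the outer ring (Psma), which gates the barrel, 1 of 8 probe sets was higher with dairy, and in the inner ring (Psmb) 6 of 9. These 6 include both probe sets of Psmb6, Psmb5 at only 0.0332 and the dim Psmb11 at 0.102. Of the cap ATPases (Psmc) 0 of 7 were higher, and of the non-ATPase subunits (Psmd) 5 of 15. Without dairy replicate 3 alone the counts were 3 of 8, 6 of 9, 0 of 7 and 7 of 15. With dairy replicate 3 and casein replicate 4 left out these counts were 2 of 8, 6 of 9, 1 of 7 and 4 of 15. They are descriptions, because members of a particle that vary together are not replicates.

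How many members reached an unadjusted p under 0.05 moved with the setting, as did the share of all probe sets. Between dairy and casein there were 10 members with quantile normalization (12% of all probe sets), 11 with array quality weights (29.3%) and 12 without casein replicate 4 (21.2%). Leaving out dairy replicate 3 gave 6 (7.93%), and leaving out both 8 (17.4%). Between leucine and casein the counts in the same order were 2 (3.85%), 5 (12.9%), 3 (8.87%), 2 (4.34%) and 7 (11.9%). Between leucine and dairy they were 3 (8.3%), 4 (14%), 1 (8.81%), 1 (5.51%) and 1 (7.63%). Array quality weights let an array count less where its values lie far from those of its group.

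Psmb6, the core subunit that cuts after acidic residues, had the smallest p of any member. Its probe set 10735244 stood at 7.06, 6.996, 7.05 and 7.20 with casein, at 7.52, 7.54, 7.47 and 7.66 with dairy, and at 7.06, 7.11, 7.22 and 7.21 with leucine. All 4 dairy livers lay above all 8 others, dairy replicate 3 included, and casein and leucine overlapped. The difference between dairy and casein was 0.472 ± 0.114 (SE), which is 1.39-fold (limma adjusted p = 0.185). The exact two-sided permutation test of 4 against 4 livers gave p = 0.0286, the smallest it can give. Any probe set whose groups do not overlap gives this value, and Psmb6 was picked for its small p, so the test adds no further evidence. The other probe set, 10822368, differed by 0.388 ± 0.179 (SE, limma adjusted p = 0.458). It ran from 5.92 to 6.25 with casein, from 6.12 to 6.86 with dairy and from 6.02 to 6.63 with leucine, and these ranges overlapped.

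Psmb3, an inner ring subunit without an active site, had the largest difference among the members. It stood at 7.31, 7.50, 7.85 and 8.16 with casein, at 8.50, 8.54, 8.14 and 8.47 with dairy, and at 8.28, 8.14, 8.29 and 8.23 with leucine. Only casein replicate 4 reached the range of the other diets. The difference between dairy and casein was 0.706 ± 0.180 (SE), or 1.63-fold (limma adjusted p = 0.213), and the exact permutation test gave p = 0.0571 with n = 4 per diet. Without casein replicate 4 Psmb3 and Psmb6 passed the threshold (0.858 and 0.512, limma adjusted p = 0.0333 and 0.0497), as did 1.55% of all probe sets. Psmb3 also passed without dairy replicate 3 and casein replicate 4 together (0.949, limma adjusted p = 0.026), as did 1.07% of all. With array quality weights Psmb3, Psmb6, Psmd3 and the main probe set of Psmd8 passed (0.972, 0.526, 0.358 and 0.595, limma adjusted p from 0.00421 to 0.0497), as did 7.72% of all.

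The other active site subunits had differences nearer 0 or below it, and whether they differ from Psmb6 in this was not tested. Psmb5, which cuts after hydrophobic residues, stood at 9.02, 8.83, 8.61 and 9.21 with casein, 8.86, 9.09, 8.50 and 9.35 with dairy, and 8.66, 8.74, 8.92 and 8.73 with leucine. Psmb7, which cuts after basic residues, stood at 10.12, 9.89, 9.85 and 9.32 with casein, 9.49, 9.61, 9.29 and 9.68 with dairy, and 9.73, 9.64, 9.53 and 9.51 with leucine. The diets overlapped for both, and between dairy and casein Psmb5 differed by 0.0332 ± 0.189 and Psmb7 by -0.278 ± 0.170 (SE, limma adjusted p from 0.556 to 0.964). Psmb1, a further inner ring subunit, stood at 8.54, 8.34, 8.22 and 8.54 with casein and at 8.73, 8.88, 8.35 and 9.15 with dairy, a difference of 0.368 ± 0.178 (SE, limma adjusted p = 0.472). Psma7 of the outer ring differed by -0.417 ± 0.241 (SE, limma adjusted p = 0.537), and by -0.217 without dairy replicate 3. The remaining core differences lay between -0.528 (Psma3l) and 0.102 (Psmb11). Psma3l was at -0.175 without dairy replicate 3 and at -0.833 without casein replicate 4.

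In the cap, Psmd3, a scaffold subunit of the lid, had the smallest p. It stood at 7.82, 7.92, 8.05 and 7.82 with casein, at 8.25, 8.22, 8.16 and 8.33 with dairy, and at 7.96, 7.95, 8.19 and 8.13 with leucine. Every dairy liver lay above every casein liver, and leucine overlapped with each. The difference between dairy and casein was 0.338 ± 0.120 (SE), or 1.26-fold (limma adjusted p = 0.358). Psmd1, the largest scaffold of the base, lay on the other side. It stood at 9.17, 8.93, 8.81 and 8.74 with casein, 8.70, 8.72, 7.81 and 8.70 with dairy, and 8.92, 8.75, 8.70 and 8.80 with leucine. Each dairy liver was below each casein liver, though casein replicate 4 and dairy replicate 2 lay close together, and the difference was -0.435 ± 0.200 (SE, limma adjusted p = 0.458). Without dairy replicate 3 it was -0.211.

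Psmd11, a lid subunit, stood at 8.63, 8.49, 8.43 and 8.04 with casein and at 8.19, 8.07, 7.54 and 8.07 with dairy, and only casein replicate 4 lay within the dairy range. Its difference was -0.431 ± 0.180 (SE, limma adjusted p = 0.427), and -0.289 without dairy replicate 3 and -0.549 without casein replicate 4. Psmd8, another lid subunit, has probe sets that differ in sign. The main probe set, 10720430, stood at 8.53, 8.30, 8.78 and 8.78 with casein, 8.94, 9.08, 8.55 and 9.19 with dairy, and 8.89, 8.82, 8.91 and 9.13 with leucine. It differed by 0.348 ± 0.168 between dairy and casein, and the other by -0.161 ± 0.190 (SE, limma adjusted p from 0.470 to 0.786). Over 12 arrays the correlation between these probe sets was 0.254, against 0.929 for the Psmc4 and 0.707 for the Psmb6 pair and 0.238 for Psma6.

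The ATPases of the cap, which pull the protein into the core, all had lower means with dairy than with casein. The differences were -0.344 ± 0.188 for Psmc1, -0.257 ± 0.228 for Psmc2, -0.124 ± 0.129 for Psmc3 and -0.187 ± 0.173 for Psmc5 (SE). Both probe sets of Psmc4 also differed to the lower side, by -0.285 ± 0.264 and -0.278 ± 0.224 (SE). Psmc6 differed most, by -0.481 ± 0.281 (SE), and limma adjusted p ran from 0.518 to 0.756 over the 7 probe sets. None of the 7 had groups that did not overlap. Psmc6 stood at 9.12, 9.04, 8.31 and 8.08 with casein, 8.50, 8.09, 7.51 and 8.52 with dairy, and 9.11, 8.71, 8.50 and 8.55 with leucine. Without dairy replicate 3 alone all 7 stayed lower with dairy, with a median of -0.128 against -0.278 with all arrays. Psmc6 was then at -0.267, Psmc2 at -0.0559 and the probe sets of Psmc4 at -0.00563 and -0.031. The first probe set of Psmc4, 10720135, was higher with dairy, by 0.0735, once dairy replicate 3 and casein replicate 4 were left out.

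Of the ubiquitin receptors of the cap, Psmd4 differed by 0.244 ± 0.145 and Psmd2 by 0.00858 ± 0.229 between dairy and casein (SE, limma adjusted p from 0.544 to 0.992). Psmd4 stood at 7.32, 7.25, 7.47 and 7.08 with casein and at 7.54, 7.50, 7.36 and 7.70 with dairy, with overlap. The deubiquitinase Psmd14 differed by -0.377 ± 0.346 and the lid subunit Psmd12 by -0.372 ± 0.189 (SE, limma adjusted p from 0.498 to 0.719). Without dairy replicate 3 these differences were -0.0676 and -0.206. The chaperones Psmd5, Psmd9 and Psmd10 differed by -0.529 ± 0.407, -0.12 ± 0.140 and -0.169 ± 0.290 (SE, limma adjusted p from 0.652 to 0.858). The lid subunits Psmd6, Psmd7 and Psmd13 differed by -0.266 ± 0.231, -0.101 ± 0.192 and 0.0925 ± 0.205 (SE). Psmc3ip, set apart, differed by -0.126 ± 0.252 (SE, limma adjusted p = 0.878).

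**Figure D3:**
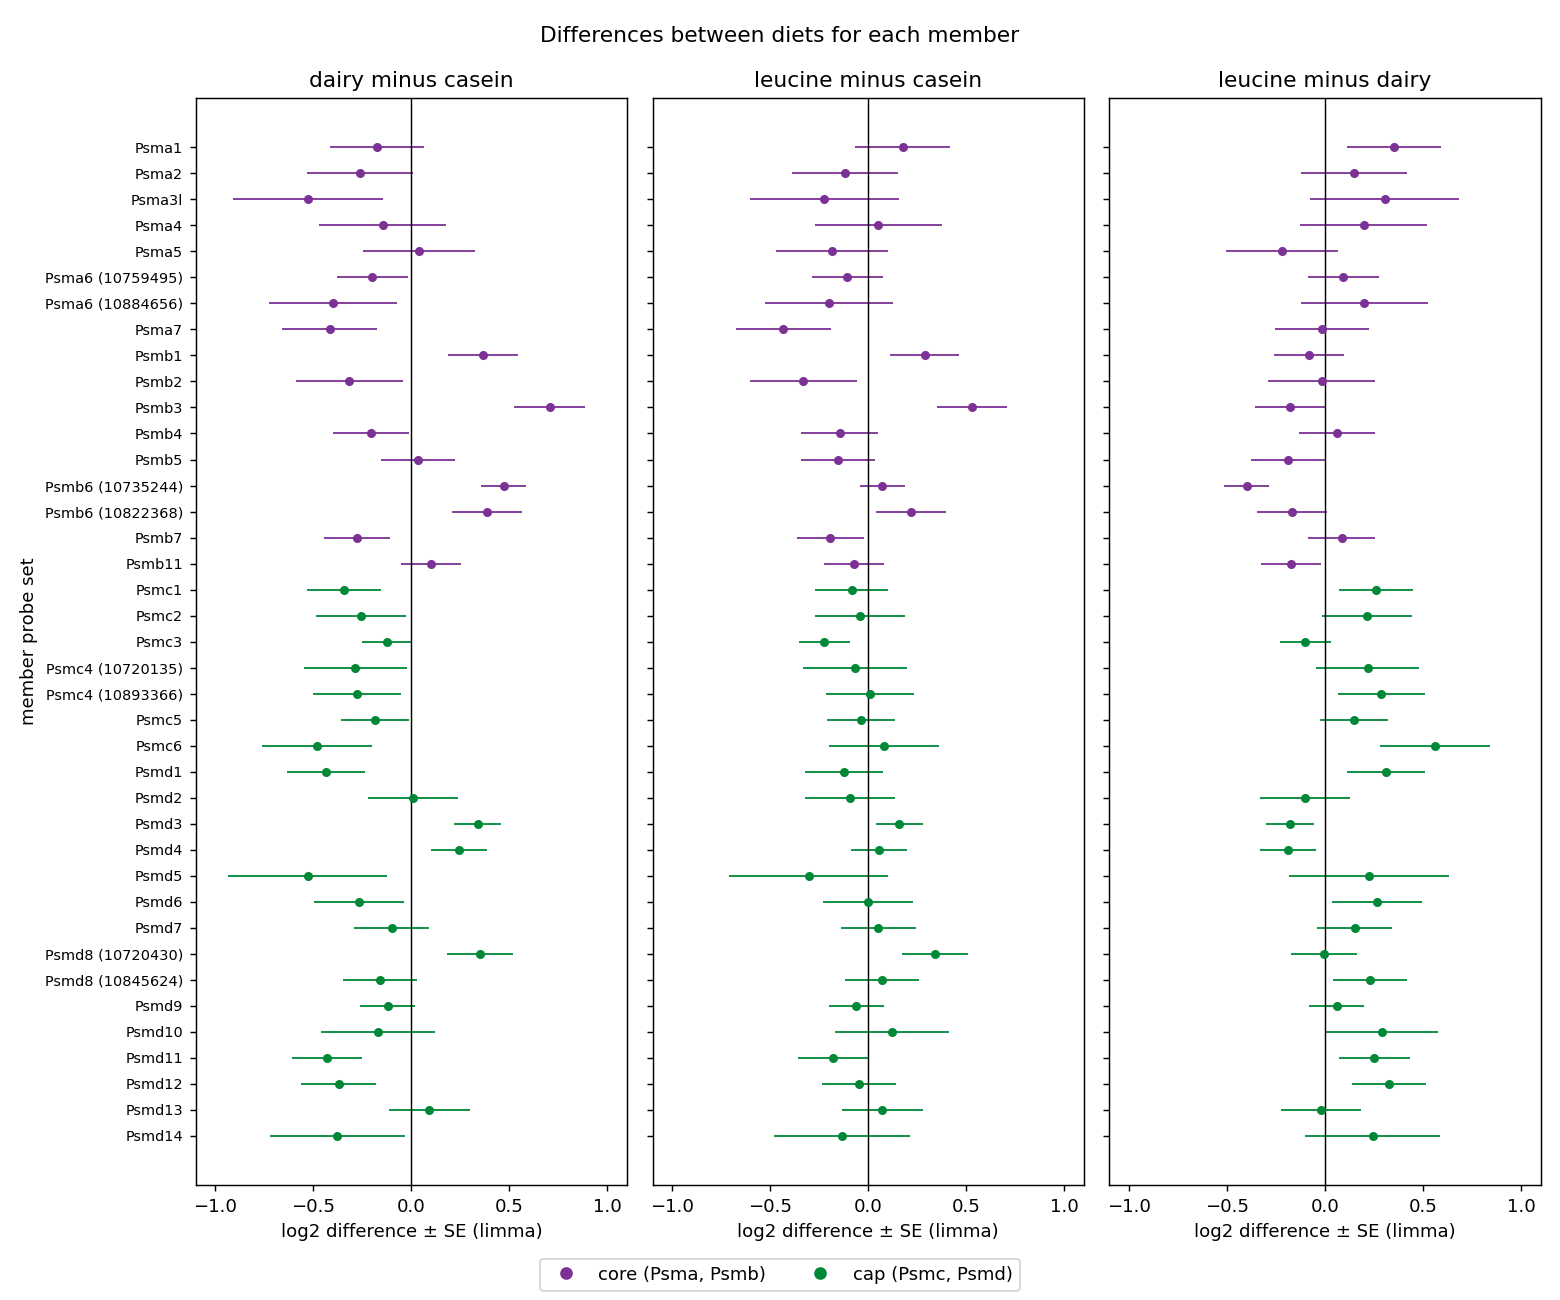
Log2 difference between diets with its standard error from limma (x axis) for each of 39 member probe sets (y axis, purple for the core and green for the cap), in 3 comparisons that each share 4 livers with the next. No point passed an adjusted p of 0.05; Psmb3 and Psmb6 lie farthest to the right for dairy minus casein, at 0.706 and 0.472.

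Between leucine and casein Psmb3 had the largest difference of the members. No member passed (lowest limma adjusted p = 0.999), and neither did any of all probe sets (0%). At an unadjusted p under 0.05 there was 1 of 39 (2.56%, beside 3.31% of all probe sets, 1.39% higher and 1.92% lower). The core median was -0.118 with 6 of 17 higher, the cap median was -0.0403 with 9 of 22 higher, and the median of all probe sets was -0.0288 with 43.8% higher. Over the brightest 25% the median was -0.0164 and 46.9% were higher. Without casein replicate 1 the core median was -0.0306 and the cap median 0.0653, and without casein replicate 4 they were -0.143 and -0.128. The groups did not overlap for 2 of 39 members, 1 in each direction, beside 2.44% of all probe sets (1.06% higher and 1.38% lower). With replicate numbers as a block on the casein and leucine arrays alone, Psmb3 and Psma7 reached an unadjusted p under 0.05 (2 of 39, beside 5.84% of all probe sets; limma adjusted p = 0.83 and 0.84).

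The member with p under 0.05 was Psmb3, at 0.529 ± 0.180 (SE, unadjusted p = 0.0119, limma adjusted p = 0.999), for which the same 4 casein livers serve as control as above. The members without overlap were the main probe set of Psmd8, at 0.342 ± 0.168, and Psma7, at -0.432 ± 0.241 (SE). Psma7, of the outer ring, stood at 9.89, 9.81, 10.15 and 9.65 with casein, 9.08, 10.00, 8.86 and 9.89 with dairy, and 9.53, 9.22, 9.53 and 9.50 with leucine. The dairy livers fell into a high and a low pair for Psma7, on either side of the leucine livers. Next by p in the core came Psmb1 at 0.288 ± 0.178 and the second probe set of Psmb6 at 0.221 ± 0.179 (SE). In the cap the ATPase Psmc3 came next at -0.224 ± 0.129, then Psmd3 at 0.16 ± 0.120 and Psmd11 at -0.179 ± 0.180 (SE). The active site subunits differed by 0.0715 ± 0.114 for the main probe set of Psmb6, -0.154 ± 0.189 for Psmb5 and -0.193 ± 0.170 for Psmb7 (SE).

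Between leucine and dairy no member passed (lowest limma adjusted p = 0.657), nor did any of all probe sets (0%). Psmb6 had an unadjusted p under 0.05 (1 of 39, or 2.56%, beside 6.95% of all probe sets, 3.65% higher and 3.3% lower). It was also the only member without overlap, beside 5.09% of all probe sets (2.04% higher and 3.04% lower). The main probe set of Psmb6 differed by -0.401 ± 0.114 (SE, limma adjusted p = 0.657), and the dairy livers in it are those compared with casein above. The core median was -0.0148 with 8 of 17 higher, and the cap median was 0.221 with 16 of 22 higher, beside -0.0113 and 48% over all probe sets and 0.145 and 65.3% over the brightest 25%. These medians were -0.175 (3 of 17 higher) and 0.0502 (14 of 22 higher) without dairy replicate 3. The core median turned to the other side without dairy replicate 2 (0.123, 10 of 17 higher) and without dairy replicate 4 (0.13, 11 of 17 higher).

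The cap genes of smallest p between leucine and dairy were Psmc6 at 0.562 ± 0.281, Psmd12 at 0.325 ± 0.189, Psmd1 at 0.312 ± 0.200 and Psmd3 at -0.179 ± 0.120 (SE, limma adjusted p from 0.730 to 0.766). In the core Psma1 followed Psmb6, at 0.351 ± 0.240, then Psmb11 at -0.174 ± 0.153 and Psmb5 at -0.188 ± 0.189 (SE, limma adjusted p from 0.767 to 0.845). Without dairy replicate 3 Psmc6, Psmd12 and Psmd1 were at 0.348, 0.159 and 0.0884 and Psma1 at 0.0957, while Psmb5 was farther from 0, at -0.336. Psmb7 differed by 0.0849 ± 0.170 (SE). Psma1, of the outer ring, stood at 8.75, 9.35, 8.17 and 9.47 with dairy and at 9.34, 9.31, 9.27 and 9.22 with leucine, so that dairy spanned the leucine range from below to above.

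**Figure D4:**
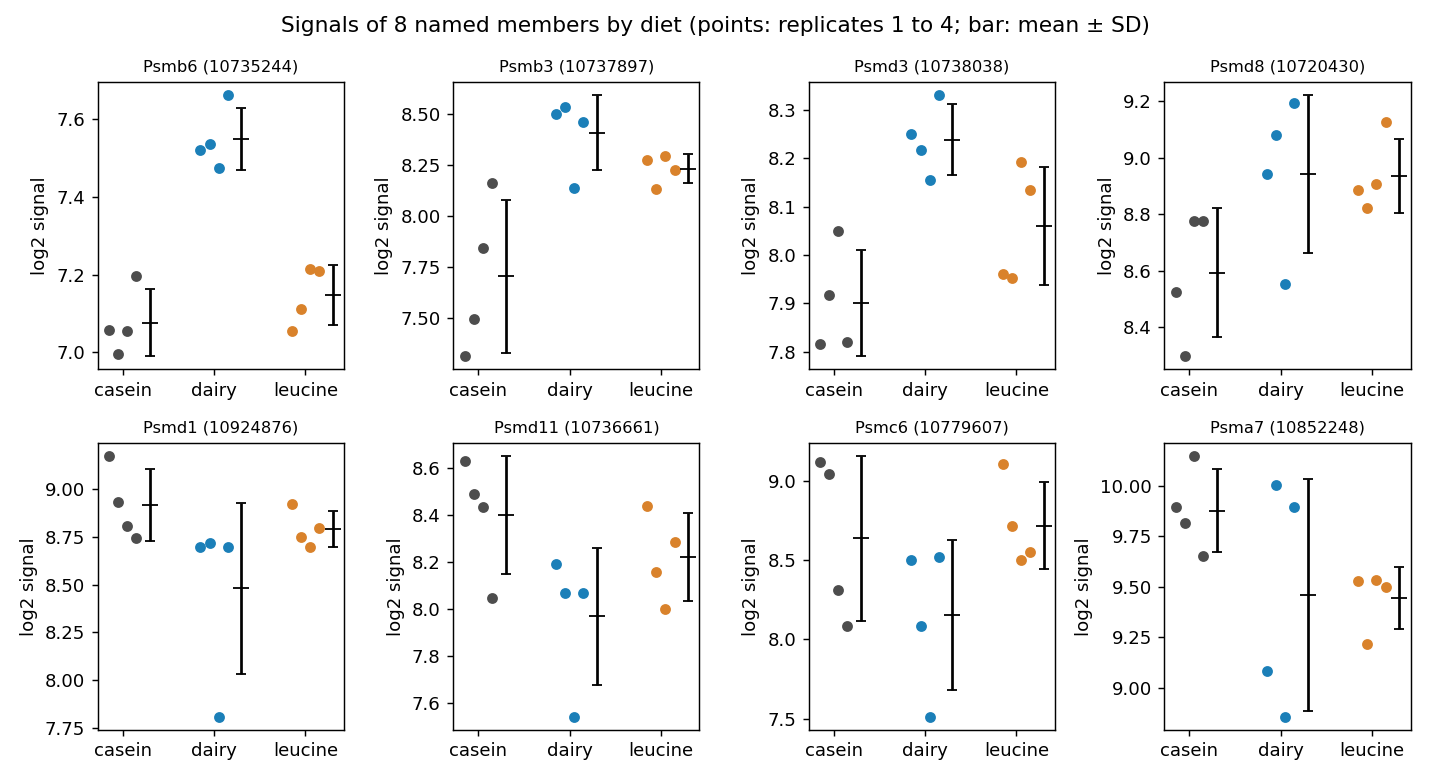
Log2 signals (y axis, not starting at 0) of 8 members by diet (x axis), with the 4 replicates as points in the order 1 to 4 and the mean ± SD beside them. For Psmb6 all 4 dairy livers lie above the other 8, while for Psmd1 and Psmc6 dairy replicate 3 is the lowest liver.

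Promoters were searched because many members vary together and NFE2L1 acts through the antioxidant response element. Whether bright probe sets at large vary together as strongly was not tested. RefSeq promoters of the GRCr8 build (250 bases before to 50 after the start) were held for 29 of the 35 core and cap genes. The letters TGACNNNGC occurred on either strand in 6 of the 29 (20.7%), and in 12.1% of all 33469 promoters. The 6 were Psmb2, Psmb5 and Psmb6 in the core and Psmd1, Psmd3 and Psmd9 in the cap. The NF-Y box CCAAT occurred on either strand in 15 of 29 (51.7%), and in 37.5% of all. In Psmb2 the last base of a CCAAT is the first base of the other match. Psmd9 also has matches to TGACNNNGC before the start, at -124 and -77, which are not shown. Matches before the start are shown for 4 genes, 2 of them with active sites, with the match in capitals and 10 bases on each side, on the strand of the gene.
Psmb6: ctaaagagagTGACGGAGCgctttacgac
Psmb5: cgtgaagctgTGACGTCGCggcgttgccc
Psmb2: cccgcgccaaTGACCGGGCggtcgcatat
Psmd1: accagatctaTGACCTCGCgagaattata
They lie at chr10:55737854-55737882 on the plus strand for Psmb6, chr15:32047421-32047449 on the minus strand for Psmb5, chr5:144254980-144255008 on the plus strand for Psmb2 and chr9:94157796-94157824 on the plus strand for Psmd1. The genes that hold the letters differed between dairy and casein in both directions, with Psmb6 at 0.472, Psmd3 at 0.338, Psmb5 at 0.0332, Psmd9 at -0.12, Psmb2 at -0.316 and Psmd1 at -0.435. Their correlations with the other members over the 12 arrays were 0.878 for Psmb2, 0.754 for Psmd1 and 0.503 for Psmb5. For Psmd3, the main probe set of Psmb6 and Psmd9 they were below 0, at -0.022, -0.19 and -0.725. A match says only that the letters are there.

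The genes around the particle gave 38 probe sets of 35 genes: chaperones of core assembly, activators, other cap subunits, immunoproteasome subunits, shuttle factors, ubiquitin and its activating enzymes, the NFE2L1 group and the Vcp segregase. Some genes stand on more than 1 list. None passed in any of the 3 comparisons with all arrays weighted alike. Between dairy and casein 4 were higher and 4 lower at an unadjusted p under 0.05 (21.1%, beside 10.9% of all probe sets), with a median of 0.0323. Between leucine and casein 2 were higher and 0 lower (5.26%, beside 3.31%), and between leucine and dairy 1 was higher and 1 lower (5.26%, beside 6.95%). The smallest p among them was that of Pomp, the chaperone that joins the core's ring pairs. Pomp stood at 7.17, 7.63, 7.94 and 8.45 with casein, 8.74, 8.81, 8.57 and 8.64 with dairy, and 8.83, 8.37, 8.61 and 8.84 with leucine. As for Psmb3, casein replicate 4 was the casein liver nearest to the other diets. Pomp differed from casein by 0.89 ± 0.229 with dairy and 0.866 ± 0.229 with leucine (SE, limma adjusted p = 0.219 and 0.999), and these comparisons share the casein livers. Between dairy and casein Pomp passed without casein replicate 4 (1.11, limma adjusted p = 0.0263), without dairy replicate 3 as well (1.15, limma adjusted p = 0.0336) and with array quality weights (1.18, limma adjusted p = 0.00792).

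By list, the median difference between dairy and casein was 0.0295 for 4 assembly chaperones, -0.0253 for 7 probe sets of activators and 0.0849 for the cap subunits Adrm1 and Sem1. It was 0.087 for 7 shuttle factors and bound deubiquitinases, -0.128 for Uba1 and Uba6, 0.0901 for 9 genes of the NFE2L1 group and -0.215 for 6 genes of the Vcp segregase. NFE2L1 itself (Nfe2l1) differed by 0.0901 ± 0.119 with dairy and -0.0946 ± 0.119 with leucine against casein (SE). Uchl5, a deubiquitinase of the cap, differed by -0.719 ± 0.274 between dairy and casein (SE, limma adjusted p = 0.380). The immunoproteasome subunits Psmb8, Psmb9 and Psmb10 differed by -0.0131 ± 0.411, 0.544 ± 0.517 and 0.514 ± 0.531 (SE). Their median deviation was highest in dairy replicate 2 (1.46) and dairy replicate 4 (1.25).

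Markers of other cells in the liver moved between some of the livers too. Neutrophil markers, 6 of 6 measured, had mean log2 signals of 3.54 to 5.04 with casein, 3.92 to 5.90 with dairy and 3.69 to 5.65 with leucine. Erythroid markers (5 of 6) lay at 4.86 to 5.20 with casein, 5.20 to 5.59 with dairy and 4.94 to 6.81 with leucine. Stellate cell markers (6 of 6) lay at 6.10 to 6.30, 6.19 to 6.88 and 6.23 to 6.31, and Kupffer cell and macrophage markers (6 of 6) at 7.40 to 8.09, 6.83 to 8.26 and 7.14 to 8.30. The last mean joins markers that went both ways between dairy and casein. Of these 3 were higher and 3 lower, from -0.714 (Cd163) to 1.05 (Adgre1), and none passed the threshold. The ranges of all these lists overlapped between the diets, as did those of lymphocyte (5 of 6), endothelial (4 of 5) and cholangiocyte (3 of 4) markers. For erythroid markers the overlap of casein and dairy was slight, with 5.2047 in casein replicate 3 and 5.1996 in dairy replicate 3. The lowest defining marker was Ahsp of erythroid cells, at 2.26 with casein, 2.37 with dairy and 2.57 with leucine. Their part in the differences of Psmb6, Psmb3 and Psmd3 was not tested.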

How the data were processed

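The authors deposited 1 log2 signal per probe set and array. The submitters' processing notes name Affymetrix Expression Console, while its version, the summarisation, the normalization and the genome build were not given in the sources used here. Array medians lay between 4.432 and 4.616, so the arrays were not on identical distributions. Of 29214 probe sets, 15310 with 1 symbol in the platform annotation were tested, 323 with several symbols and 13581 unlisted were not. The Entrez IDs of 39 of 40 members were found in the RefSeq table.

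Differences were fitted with limma 3.58.1 in R 4.3.3 (3 group means over 12 arrays, eBayes, 9 residual and 3.448 prior degrees of freedom), two-sided, with Benjamini-Hochberg adjustment over 15310 probe sets at 0.05. The fit was tested on simulated data. The exact permutation test covered only Psmb6 and Psmb3, which were picked for their small p in the same data. Members, lists, tests and the naming rule were chosen with earlier results of these data known. Named in each comparison were the 4 core and 4 cap genes of smallest p, and throughout the active site subunits, ATPases, ubiquitin receptors, Psmd14, cap chaperones, the highest and lowest member and genes whose probe sets disagree. Other genes were named after their values were seen, such as Psma4 for its correlation, the remaining lid subunits, Pomp and Uchl5. Alternatives were other normalization, centring, probe sets, variance models, weights, arrays and a replicate block. Same-numbered samples correlated in their deviations from group means from 0.208 to 0.532 between casein and leucine, so that every pair of these was above 0.1, but from -0.505 to 0.59 where dairy was in the pair. Casein and leucine samples of unlike number ran from -0.599 to 0.632, the highest being casein replicate 2 with leucine replicate 1. Equal numbers are thus not singled out by these correlations. The main fit did not pair samples. In the alternatives the numbers served as a block, over all 12 arrays and on the casein and leucine arrays alone. The latter followed a weak hint from the data and not from the labels. The member counts per ring without narrow arrays were chosen after seeing the data. The number of arrays limits the precision.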

Additional observations from a re-analysis of the deposited data

Results flagged for a closer look

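In 5 of 126 groups of 4 livers, 1 liver lay far from the other 3, where chance would give about 6.3. Psmd1 stood at 7.81 in dairy replicate 3, with the others from 8.70 to 8.72. Psma5 stood at 7.26 in casein replicate 4, with the others from 8.27 to 8.38. Psma7 stood at 9.22 in leucine replicate 2, with the others from 9.50 to 9.53. The dim probe set 10759495 of Psma6 stood at 2.20 in dairy replicate 1 (others from 2.62 to 2.68) and at 2.81 in leucine replicate 4 (others from 2.55 to 2.57).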

How the results depend on the processing

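No member passed the adjusted threshold in any of the 3 comparisons except, between dairy and casein, 4 with array quality weights, 1 without dairy replicate 3 and casein replicate 4 together, and 0 to 2 with single arrays left out (2 without casein replicate 4). The count at an unadjusted p under 0.05 (4, 1 and 1 for dairy minus casein, leucine minus casein and leucine minus dairy) was 10, 2 and 3 with quantile normalization and 11, 5 and 4 with array quality weights. It was 2 for dairy minus casein with a trended, robust variance prior, 2 for each leucine comparison when fitted on the compared groups alone, and 8 for dairy minus casein and 7 for leucine minus casein without both arrays. Single arrays left out gave 3 to 12, 1 to 3 and 1 to 4. With the replicate block over all 12 arrays it was 5, 1 and 2, and on the casein and leucine arrays alone, a fit added after seeing the data, 2. No member passed the adjusted threshold with either block.

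The core median between dairy and casein was 0.0767 with array quality weights, and with single arrays left out it lay between -0.332 and 0.0799, the ends being dairy replicate 4 and dairy replicate 3 left out. The cap median ran from -0.393 to -0.0836. The core median ran from -0.17 to -0.0306 between leucine and casein and from -0.175 to 0.13 between leucine and dairy, and the cap median from -0.128 to 0.0653 and from 0.0502 to 0.291.

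All 39 members between dairy and casein, and the other differences printed by gene, made 69 differences, of which 58 kept their direction in every setting that gave a value. The 11 others were all between dairy and casein, the only comparison for which every member was followed. The leucine comparisons entered mainly with the genes of smallest p and the active site subunits. Whether their other differences keep their direction was not tested. With array quality weights Psmc4 (10720135) was 0.0578, Psmd10 0.105, Psma1 0.0776, Psma4 0.0767, Psmd7 0.0251, Psmc3ip 0.0298 and Psmb8 0.626. Without both arrays Psmc4 was 0.0735, Psmd2 -0.0524, Psma1 0.0169, Psma5 -0.0715, Psma4 0.00147 and Psmb8 0.335. Psmd2 was -0.0196 with arrays centred on the median, and Psmb8 0.084 with quantile normalization. With single arrays left out Psmd2 ran from -0.207 to 0.182, Psmb5 from -0.1 to 0.182, Psmd10 from -0.365 to 0.0611, Psma1 from -0.354 to 0.0799, Psma4 from -0.387 to 0.196, Psma5 from -0.23 to 0.195, Psmd7 from -0.223 to 0.0504, Psmd13 from -0.0783 to 0.256, Psmc3ip from -0.285 to 0.0453 and Psmb8 from -0.326 to 0.348. The causes of these changes were not tested. Psmb11 and the lesser probe sets of Psma6 and Psmd8 have dim signals, which limits what they can show.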
